A study of Mus musculus with 36 samples.

Results

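Chromatin accessibility in cortical neurons depolarised with KCl for 10 h was compared with that in silenced control neurons. Accessibility was measured by ATAC-seq, in which the Tn5 transposase cuts open DNA and the reads are counted per peak, a region that was open in some of the libraries. The 2 KCl 10 h libraries were set against the 6 control libraries, 8 of the 18 ATAC-seq samples and of the 36 samples in the series, over 56383 of 58177 peaks (those with a mean count of at least 10). At KCl 10 h, 3333 peaks had gained accessibility, 5.91% of those tested, and 1107 were closing, 1.96% (edgeR quasi-likelihood test, adjusted p below 0.1). The gained peaks lay mostly between genes and in introns, started from low control counts, which enter the call, and held the AP-1 letters in 46.3%. Of the closing peaks 40.2% lay at promoters, against 27.1% of all tested peaks, an excess that depended on how GC content was treated, and 1.81% held those letters.

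The neurons came from CD-1 mouse cortex at embryonic day 15, with the tissue of all embryos pooled, and were kept 7 days in vitro. In all the groups used here the neurons first met AP-5 (100 µM, a blocker of NMDA receptors) and TTX (1 µM, a blocker of sodium channels), which silence network activity. For KCl 10 h, 2 h of silencing was followed by 10 h of 55 mM KCl, and controls had stayed silenced for 3, 8 or 12 h in all, with 2 libraries at each duration. KCl for 1 h and 6 h and the growth factor BDNF (10 ng/ml) for 10 h, with 2 libraries each, served as direct comparisons. The study describes the libraries of a group as biological replicates. The labels do not say whether these were separate cultures, so the p-values measure only the spread between these libraries.

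Raised extracellular potassium depolarises the membrane and opens voltage-gated calcium channels, of which the L-type is the one best known for signalling to the nucleus. Calcium then acts through calmodulin on CaM kinases and on the phosphatase calcineurin, and so on the transcription factors CREB and MEF2. Among the first genes induced are those for Fos and Jun proteins, which pair as AP-1 and bind the near-palindromic site TGACTCA at enhancers. CTCF, in contrast, binds a long site and shapes chromatin loops in most cell types.

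The central 200 bases of 8 peaks show what the motif results below count. The sequences are the mm10 reference (GRCm38, RefSeq), plus strand, not the CD-1 alleles. The first 3 are the largest gains, followed by the 2 gained peaks with the smallest adjusted p near a gene at least 2-fold higher in RNA, and the gained promoter peak with the smallest adjusted p. In these 6, capitals mark AP-1 matches (TGACTCA or its reverse complement), which the one nearest to Cubn lacked. Gm48774, like Gm10060 further below, is annotated as a processed pseudogene.
Nearest to Lgsn (chr1:31157028-31157227): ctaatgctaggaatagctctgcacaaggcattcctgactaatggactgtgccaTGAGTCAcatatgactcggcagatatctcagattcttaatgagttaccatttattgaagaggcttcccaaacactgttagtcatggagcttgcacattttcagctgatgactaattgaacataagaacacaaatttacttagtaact
Nearest to Fam241a (chr3:127932599-127932798): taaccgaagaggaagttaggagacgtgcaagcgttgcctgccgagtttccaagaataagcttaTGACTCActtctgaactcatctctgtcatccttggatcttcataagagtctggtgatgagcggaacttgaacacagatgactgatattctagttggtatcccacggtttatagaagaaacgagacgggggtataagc
Nearest to Nkain3 (chr4:21195770-21195969): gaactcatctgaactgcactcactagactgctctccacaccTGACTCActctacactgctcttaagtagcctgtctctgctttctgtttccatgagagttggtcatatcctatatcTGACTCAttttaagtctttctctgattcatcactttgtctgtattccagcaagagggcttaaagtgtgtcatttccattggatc
Exon of Hsd17b12 (chr2:94052110-94052309): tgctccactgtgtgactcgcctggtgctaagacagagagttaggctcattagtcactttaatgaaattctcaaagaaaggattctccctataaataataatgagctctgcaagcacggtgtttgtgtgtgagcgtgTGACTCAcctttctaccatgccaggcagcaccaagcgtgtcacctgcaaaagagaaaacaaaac
Nearest to Cubn (chr2:13500508-13500707): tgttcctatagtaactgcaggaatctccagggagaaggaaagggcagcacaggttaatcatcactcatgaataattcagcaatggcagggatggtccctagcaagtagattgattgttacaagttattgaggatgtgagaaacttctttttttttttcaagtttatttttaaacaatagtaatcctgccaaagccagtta
Promoter of Gm48774 (chr12:9689688-9689887): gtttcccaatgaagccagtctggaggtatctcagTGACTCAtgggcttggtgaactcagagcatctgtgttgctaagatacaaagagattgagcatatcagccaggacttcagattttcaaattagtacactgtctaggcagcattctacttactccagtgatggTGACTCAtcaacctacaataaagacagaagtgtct
The last 2 are one of the largest closings and the closing promoter peak with the smallest adjusted p. Here capitals mark matches to the CTCF or KLF/SP letters, of which there was 1, a CTCF match at Gm10060, and neither peak held AP-1.
Nearest to Olfm4 (chr14:80249977-80250176): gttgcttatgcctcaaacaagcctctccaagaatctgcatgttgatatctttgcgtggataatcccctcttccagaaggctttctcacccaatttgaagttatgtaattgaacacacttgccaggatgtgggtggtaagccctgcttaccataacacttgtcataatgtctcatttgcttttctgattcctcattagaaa
Promoter of Gm10060 (chr8:19784682-19784881): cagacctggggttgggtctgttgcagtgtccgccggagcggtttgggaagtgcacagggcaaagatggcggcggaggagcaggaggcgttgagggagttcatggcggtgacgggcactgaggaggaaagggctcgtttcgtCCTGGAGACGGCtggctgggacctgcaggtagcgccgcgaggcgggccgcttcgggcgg

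The KCl 10 h libraries held 2986456 and 3214094 reads in peaks, and all 18 ATAC-seq libraries between 1241829 and 6236439. Replicates were not identical, and their counts differed by more than sampling noise (chi-square per degree of freedom between 1.99 and 2.55). In the matched RNA-seq the 15 neuron markers summed to 88712 and 86012 normalised counts at KCl 10 h, within the controls' 81507 to 91518, where 9 of 15 rose and 4 fell, and none was at 0 in all 8 libraries. Of all 16209 genes tested in RNA, 29% rose and 28.2% fell, the background for these counts (limma, adjusted p below 0.1). The summed markers of each other cell type lay outside the control range. The 14 astrocyte and radial glia markers summed to 26852 and 28174 against 28592 to 34167 in controls, and 7 of 14 fell and 0 rose. The 8 proliferation markers summed to 3963 and 4379 against 5498 to 8468, with 7 of 8 lower. The 12 microglia, endothelial and mural markers summed to 2332 and 2201 against 2429 to 2952 (1 rose and 2 fell of 8 tested), and the 9 oligodendrocyte lineage markers to 7854 and 7034 against 6474 to 7001 (1 rose and 3 fell). In bulk samples, fewer cells of a type and less RNA per cell cannot be told apart, and the part of these cells in the peaks below was not tested.

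Gained peaks were smaller in controls than the typical peak. Their median scaled count (counts after removing the trend of fold change on peak size) was 11.9 in controls and 33 at KCl 10 h, and over all tested peaks 28.1 and 28.7. Closing peaks went from 42.3 to 20.6. Control counts enter the calls, so low ones in gained and high ones in closing peaks follow partly from the choice. The filter used the mean of all 18 libraries, so a peak low in controls could pass through stimulated libraries. The median log2 fold change was 1.38 for gained and -1.05 for closing peaks against -0.01 over all peaks, and at least 2-fold changes made up 2457 of the gained and 592 of the closing peaks, and 4815 of all tested. At the stricter adjusted p below 0.01, 1447 peaks (2.57%) stayed gained and 113 (0.2%) closing. Both KCl 10 h libraries lay beyond all 6 controls in 2964 of 3333 gained and 946 of 1107 closing peaks, where 17.3% of all tested peaks did so in either direction.

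**Figure D1:**
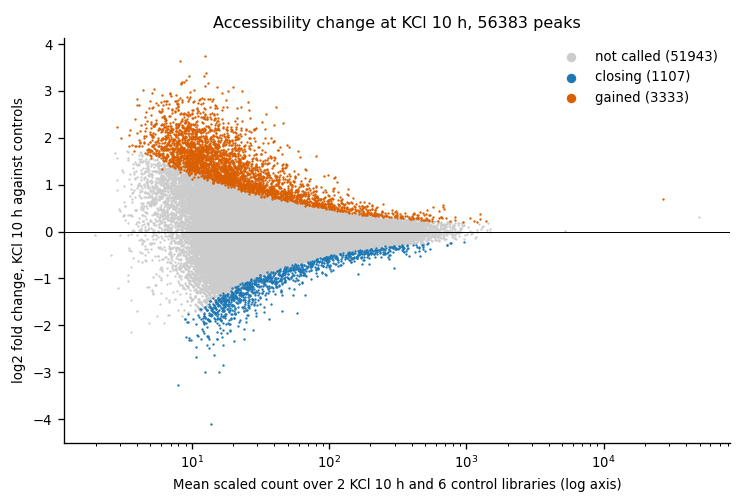
Log2 fold change of each of 56383 peaks at KCl 10 h against controls (vertical axis) by its mean scaled count over the 8 libraries (horizontal log axis), with gained peaks in orange and closing peaks in blue. Most gained peaks sit at low counts, and the largest folds of either sign are there too.

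How many peaks closed depended on the scaling. With TMM scaling, 1 factor per library, 5051 peaks were gained and 2944 closing, and with DESeq2 size factors 4696 and 3909, so the gained share of called peaks went from 75.1% to 63.2% and 54.6%. The number also depended on single libraries. Without KCl 10 h library 1 the counts were 1326 and 382, and without library 2 they were 1837 and 425. Against the 2 controls of 10 h alone they were 1492 and 593.

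Gained peaks were mostly far from promoters. A promoter peak was defined as overlapping the stretch from 1000 bp before to 100 bp after an annotated start site (GENCODE M21). Of the gained peaks, 9.84% (328 of 3333, exact 95% interval 8.85% to 10.9%) lay at promoters, against 27.1% of all tested peaks, and 48.3% were intergenic and 38% intronic. The closing peaks lay at promoters in 40.2% (445 of 1107, exact 95% interval 37.3% to 43.2%), a share that was 79.2% under TMM scaling (trimmed mean of M-values) and 24.5% when a curve of fold change on GC content was removed, below the share of all tested peaks. The gained share was 5.35% and 17.4% in these settings. The share of tested peaks that were gained rose with the distance to the nearest start site, from 2.2% under 1 kb to 7.37% at 10 to 50 kb and 12.2% beyond 200 kb (84 of 688 peaks). The closing share went from 2.92% to 1.45% and 1.16% over the same bins. Gained peaks were also richer in A and T, with a median GC content of 42.5% against 53.3% in closing and 49% in all tested peaks.

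The share of reads at promoters was also lower at KCl 10 h, a measure that uses no peak call. Promoter peaks took 58.5% and 58% of the reads in the KCl 10 h libraries, and 63.5% to 64.4% in the 6 controls. The groups did not overlap, and the mean fell from 63.8% ± 0.342 (SD, n = 6) to 58.3% ± 0.402 (SD, n = 2), a difference of -5.57 percentage points (exact permutation test, two-sided, p = 0.0357, the smallest that 28 assignments can give).

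AP-1 letters were common in gained peaks and rare in closing ones. Of the gained peaks, 46.3% (1542 of 3333, exact 95% interval 44.6% to 48%) held TGACTCA on either strand within 200 bp at the peak centre, against 1.81% of closing peaks and 9.06% of all tested peaks. The share among gained peaks was 43.5% under TMM scaling, 45.8% with the GC curve and 43% against the controls of 10 h alone. Within each class the gap was there too. Gained peaks held AP-1 in 18% of promoters, 52% of introns and 47.5% of intergenic peaks, where all tested peaks of those classes held it in 2.59%, 11.4% and 11.9%. Between 40% and 45% GC, 51.6% of gained and 13.8% of tested peaks held it, and between 50% and 60% GC 46.4% and 6.69%. At 60% GC and above the gap was absent, with 1.12% of gained (2 of 179) and 1.41% of tested peaks.

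Read the other way, 3.49% of the 51272 peaks without an AP-1 match were gained, 27.3% of the 4528 with 1 match and 52.8% of the 583 with 2 or more. The median log2 fold change of these groups was -0.04, 0.65 and 1.29. Of the peaks with 2 or more matches, 1 closed. Among gained peaks the AP-1 share was 17.1% at log2 fold changes under 1, 64.7% from 1.5 to 2 and 71.2% above 2.5 (89 of 125). The matches sat at the middle of the peaks. Gained peaks held 19.2 AP-1 matches per 100 peaks in the 50 bp after the centre and 0.9 at 450 to 500 bp, and closing peaks 0.542 and 0.994.

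**Figure D2:**
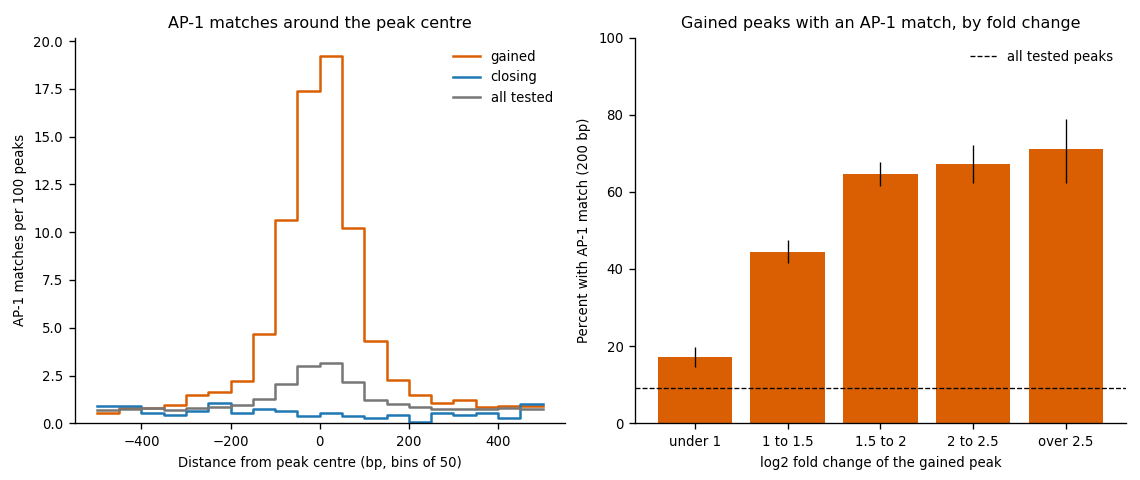
Left, AP-1 matches per 100 peaks in 50 bp bins around the peak centre for gained, closing and all tested peaks. Right, percent of gained peaks with an AP-1 match in the central 200 bp by log2 fold change, with exact 95% intervals and a dashed line at the share of all tested peaks (9.06%). Among gained peaks the share was lowest, 17.1%, at log2 fold changes under 1.

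For the other letters searched the shares of gained and closing peaks lay closer in percentage points, though some rare letters differed by large ratios. Unlike for AP-1, these shares were not split by class or GC content. E-boxes, the sites of basic helix-loop-helix factors such as the NeuroD proteins, were searched in 3 forms. CATATG was in 9.75% of gained, 2.35% of closing and 4.74% of tested peaks, CAGATG in 23.4%, 17.1% and 18.7%, and CAGCTG in 13.7%, 17.9% and 17.6%. MEF2 letters were in 5.58% of gained and 3.02% of tested peaks, the POU octamer ATGCAAAT in 5.04% and 3.17%, and the homeobox letters TAATTA in 11.2% and 9.34%. The cAMP response element TGACGTCA, the site of CREB, was in 0.81% of gained, 0.903% of closing and 0.717% of tested peaks. CTCF letters were in 2.37% of gained, 10.7% of closing and 9.81% of tested peaks, KLF/SP letters (GGGNGGGGC) in 1.86%, 8.58% and 5.77%, and ETS letters (CCGGAAGT) in 0.21%, 3.34% and 1.28%. EGR (GCGTGGGCG) and NRF1 letters were each in 0.09% of gained, 0.813% of closing and 0.302% and 0.293% of tested peaks, RFX letters in 0.93%, 1.08% and 1.12%, and NFI letters in 0.06%, 0% and 0.0922%.

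The 1791 gained peaks without AP-1 stand beside the 1542 with it as follows. Their median log2 fold change was 1.14 against 1.62, they lay at promoters in 15% against 3.83%, and their median control count was 18.8 against 7.82. MEF2 letters were in 6.87% of those without and 4.09% of those with AP-1, and CRE letters in 1.34% and 0.195%, while the E-box CATATG was in 9.83% and 9.66%. A match is a description of the letters and says nothing of whether a factor was bound.

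**Figure D3:**
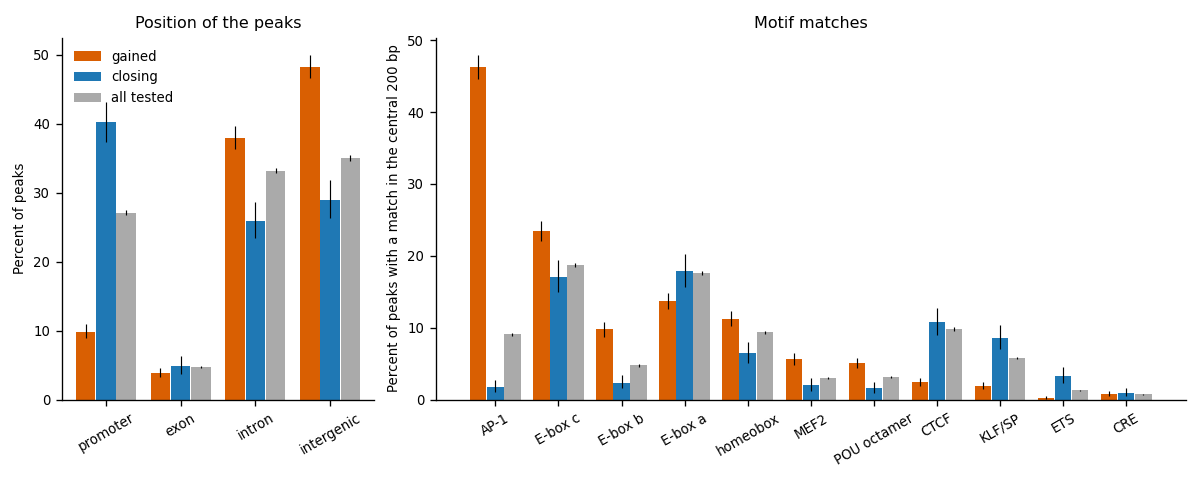
Left, percent of gained, closing and all tested peaks in promoters, exons, introns and intergenic DNA. Right, percent with each motif in the central 200 bp (E-box a is CAGCTG, b is CATATG and c is CAGATG), with exact 95% intervals that cover counting error only. The widest gap is AP-1, at 46.3% of gained and 1.81% of closing peaks.

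The 10 largest gains were peaks with few reads in controls, which a choice by fold change favours. They were the largest log2 fold changes among peaks with adjusted p below 0.01 and both KCl 10 h libraries beyond all controls, so that non-overlap was part of the choice, here and for the largest closings, and 8 of 10 held AP-1. Genes are given as the nearest protein-coding start site, by distance only. The largest was at chr1:31156954-31157302, in an intron of 4931428L18Rik and 19.3 kb from Lgsn. It had scaled counts of 39.7 and 42.7 at KCl 10 h and 0.839, 3.47 and 4.8 as the lowest, median and highest of the 6 controls (log2 fold change 3.75, SE 0.40, edgeR adjusted p 3.68e-12). The mean at KCl 1 h was 9.75 ± 0.671 (SD, n = 2), between them.

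An intronic peak of 9830132P13Rik, 36.4 kb from Fam241a (chr3:127932579-127932819), was at 26.7 and 26.5 against 0.906, 1.72 and 4.09 (log2 fold change 3.63, SE 0.52, edgeR adjusted p 7.65e-08). Fam241a itself was higher in RNA (log2 fold change 1.07, adjusted p 1.23e-05, limma, the scale of all RNA changes given), with 150.3 and 129.6 normalised counts at KCl 10 h against 49.1, 72.3 and 73.3 as the lowest, median and highest control. The intergenic peak nearest to Nkain3 (chr4:21195725-21196016), though 417 kb away, was at 43.5 and 35.8 against 1.19, 4.08 and 5.83 (log2 fold change 3.38, SE 0.41, edgeR adjusted p 2.14e-10).

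Ppp3ca, which encodes the catalytic subunit of calcineurin, held an intronic gain with no AP-1 match at chr3:136788770-136789048. Its scaled counts were 24.1 and 30.3 against 1, 1.97 and 7.05 (log2 fold change 3.20, SE 0.49, edgeR adjusted p 5.09e-07), while Ppp3ca RNA fell by 0.42 on the log2 scale (adjusted p 1.1e-05, limma). Angpt1, the gene of a ligand of the Tie2 receptor, lay 330.4 kb from a peak at chr15:42346272-42346508, which was at 33.9 and 44.5 against 1.01, 3.27 and 11.2 (log2 fold change 3.17, SE 0.45, edgeR adjusted p 9.27e-08). Angpt1 RNA was higher by 0.47, adjusted p 0.00743, limma. Of the other 4, the peaks nearest to Zfp64, Krtap11-1, Samsn1 and Aldoart1 had log2 fold changes of 3.31, 3.22, 3.18 and 3.17. The Samsn1 peak rested on 1 library, with 10.2 and 40.1 at KCl 10 h, and its call was lost without KCl 10 h library 2.

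**Figure D4:**
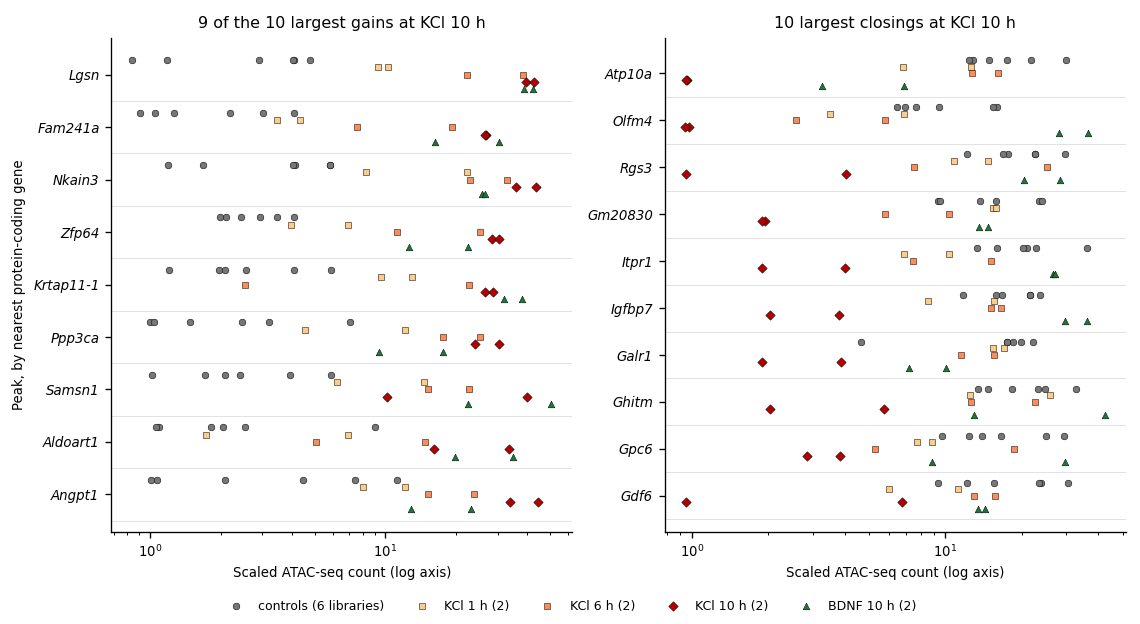
Scaled ATAC-seq counts (horizontal log axis) of 9 of the 10 largest gains (left) and 10 largest closings (right), each point a library, named by the nearest protein-coding gene. By the way the peaks were chosen, KCl 10 h points lie above all controls in the gains and below in the closings, where the highest KCl 10 h point is that of Gdf6 at 6.76.

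The 10 largest closings were small peaks in which no KCl 10 h library had a scaled count above 6.76, and none held AP-1. The largest was nearest to Atp10a, the gene of a phospholipid flippase. Its scaled counts were 0.953 and 0.946 at KCl 10 h and 12.3, 16.1 and 29.9 as the lowest, median and highest control (log2 fold change -4.11, SE 0.81, edgeR adjusted p 0.000167). Atp10a RNA was higher, by 0.90, adjusted p 0.00138, limma. A peak in an exon of Rgs3 (chr4:62625132-62625363), a regulator of G-protein signalling, was at 4.05 and 0.95 against 12.2, 20.1 and 29.7 (log2 fold change -3.00, SE 0.62, edgeR adjusted p 0.000401). Rgs3 RNA was at -0.01 (adjusted p 0.954, limma).

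In Itpr1, whose product is the inositol trisphosphate receptor that releases calcium from stores, an intronic peak (chr6:108300703-108300978) was at 4.01 and 1.89 against 13.3, 20.6 and 36 (log2 fold change -2.85, SE 0.61, edgeR adjusted p 0.000589). RNA of Itpr1 also fell, by 0.88 (adjusted p 4.38e-09, limma), with 434 and 498 normalised counts at KCl 10 h against 810.4, 832 and 940.1 as the lowest, median and highest control. Another of the 17 peaks tested at Itpr1 was gained, with AP-1 (1.40, adjusted p 0.0764, edgeR). At Galr1, a galanin receptor, an exonic peak was at 3.87 and 1.89 against 4.66, 18 and 22.2 (log2 fold change -2.48, SE 0.64, edgeR adjusted p 0.00712), while its RNA, low in all libraries, was at 7.33 and 5.45 normalised counts against a control median of 2.08. The peaks nearest to Olfm4, Igfbp7, Ghitm, Gpc6 and Gdf6 had log2 fold changes of -3.26, -2.63, -2.42, -2.39 and -2.29, and each of these 5 and Galr1 lost its call without KCl 10 h library 1 or library 2. The remaining one, on chromosome Y (chrY:6821484-6821977, -3.00), is uncertain, since the genes there occur in near-identical copies.

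Promoter peaks were ranked by adjusted p and not by fold change, so their sizes cannot be set against those above. The 5 gained promoter peaks with the smallest adjusted p lay at Gm48774, Rdh10, Dclk1, Gzmk and Gm17923. Of these, Gm48774 and Gm17923 are annotated as processed pseudogenes. At Rdh10, a retinol dehydrogenase of retinoic acid synthesis, the peak (chr1:16130032-16130345) was at 35.1 and 53.8 against 3.3, 7.81 and 10 (log2 fold change 2.59, SE 0.34, edgeR adjusted p 4.51e-09), and Rdh10 RNA fell by 0.41 (adjusted p 0.038, limma). Dclk1 (doublecortin-like kinase, a microtubule-binding protein) had 195 and 174 against 68.2, 85.7 and 106 (chr3:55461618-55462212, log2 fold change 1.14, SE 0.15, edgeR adjusted p 1.61e-08), and its RNA rose by 0.18, adjusted p 0.0158, limma. The Rdh10 and Dclk1 peaks lay at start sites inside the genes (chr1:16105774-16133734 and chr3:55242364-55539068, both plus strand), whereas RNA was counted per gene. The promoter peaks of Gm48774, Gzmk and Gm17923 were at 1.84, 1.18 and 2.24, and no RNA value is given for them because they were not in the RNA test. In all 5, both KCl 10 h libraries lay beyond every control, as in 88.9% of all gained peaks.

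Closing promoters were led by Gm10060, Tpgs1, Hist1h2be, Pick1 and Tsen34. Tpgs1, a subunit of the tubulin polyglutamylase complex, was at 73.5 and 119.7 against 169.6, 187 and 191 (chr10:79668786-79669974, log2 fold change -0.91, SE 0.16, edgeR adjusted p 1.2e-05), with RNA higher by 0.60, adjusted p 0.000122, limma. Pick1, a scaffold that binds AMPA receptors, was at 22.7 and 11.9 against 46.4, 51.6 and 65.7 (chr15:79229070-79229554, log2 fold change -1.68, SE 0.33, edgeR adjusted p 0.000127), and its RNA was at -0.03 (adjusted p 0.87, limma). Tsen34, of the tRNA splicing endonuclease, was at 371 and 321 against 422, 486 and 578 (-0.52), and its RNA fell by 0.42 (adjusted p 7.48e-05, limma). The promoter peak of Hist1h2be, shared with Hist1h1e (-1.35), had RNA higher by 1.47 (adjusted p 9.17e-06, limma), but histone genes share sequence, so that value is uncertain. Gm10060 (-0.77), annotated as a processed pseudogene, is uncertain too.

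Some long neuronal genes held several gained peaks. Peaks were assigned to the nearest protein-coding start site within 100 kb, which placed 43114 tested peaks at 15092 genes. A gained peak was assigned to 1701 genes, 2 or more to 287 and 4 or more to 8, and a closing peak to 922 genes, 2 or more to 31. Ank2, the gene of ankyrin-B, an anchor of channels to the cytoskeleton, had most, 6 of 31, with log2 fold changes from 0.83 to 3.09 and AP-1 in 3. Its RNA rose by 0.43 (adjusted p 0.00141, limma). Magi2, a postsynaptic scaffold, had 5 of 24, with AP-1 in 4, and 1 closing peak. Genes with more peaks have more chances, so the tested number is given with each.

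Kcnab1, an accessory subunit of voltage-gated potassium channels, had 4 of 14 gained while its RNA fell by 1.14 (adjusted p 2.56e-06, limma), from a control median of 88.2 to 41.6 and 38.1 normalised counts. The other genes with 4 were Snd1 (4 of 22), Sgip1 (4 of 9), Herc3 (4 of 15), the adhesion gene Cntn4 (4 of 13) and Ryr2 (4 of 10), the ryanodine receptor that releases stored calcium. None of the 4 at Cntn4 held AP-1, and 3 of the 4 at Ryr2 did. RNA rose for Sgip1 (0.42), Herc3 (0.43) and Cntn4 (0.62), fell for Snd1 (-0.36), and was at -0.05 for Ryr2 (adjusted p 0.749, limma). Cwc22 (3 of 29) and Hsd17b12 (3 of 10) complete the 10. Most closing peaks were at Chl1, an adhesion gene, with 3 of 12, and Sfi1 with 3 of 21. Igfbp7, the cyclin gene Ccnd1 and Lamtor5 had 2 each.

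The calcium genes, the pathway that KCl acts through, held many gained peaks. Of the 233 tested peaks at 29 genes of calcium channels, CaM kinases and calcium signalling, 33 were gained (14.2%) and 1 closing, against 4.78% and 2.22% of peaks at all protein-coding genes. The median log2 fold change was 0.05 over the list and -0.03 over all. AP-1 letters were in 15.9% of the list's peaks and 7.96% of all, and in 21 of the 33 gained. The gains lay at 17 genes, of which 8 were called higher and 3 lower in RNA. Over the whole list 14 of 30 genes tested in RNA were higher and 7 lower, and over all genes 29% and 28.2%.

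Cacnb2, Ppp3ca and Cacna2d1 held the gained peaks with the smallest adjusted p of the list. In Cacnb2, the gene of a beta subunit that brings calcium channels to the membrane, an intronic peak without AP-1 (chr2:14936355-14936991) was at 90.1 and 92.8 against 13.2, 15.7 and 19.8 (log2 fold change 2.51, SE 0.28, edgeR adjusted p 1.44e-11), and RNA rose by 0.57, adjusted p 0.000104, limma. Cacna2d1, of an alpha2delta subunit, had 3 of 21 peaks gained, all with AP-1. The one with the smallest adjusted p (chr5:16355835-16356228) was at 30.6 and 27.3 against 1.17, 4.71 and 16 (log2 fold change 2.33, SE 0.41, edgeR adjusted p 1.58e-05), and its call was lost against the controls of 10 h alone. Cacna2d1 RNA rose by 0.27, adjusted p 0.00267, limma. The L-type pore genes were Cacna1c, with 3 of 15 gained, all with AP-1, and RNA at -0.13 (adjusted p 0.283, limma), and Cacna1d, with 1 of 6 gained and RNA that fell by 1.34 (adjusted p 4.64e-08, limma).

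Downstream of calcium, Camk2d, a CaM kinase II gene, had 3 of 17 peaks gained and RNA higher by 0.53 (adjusted p 4.74e-06, limma). Rcan2, a calcineurin regulator, also had 3 of 12 gained, with RNA higher by 1.09 (adjusted p 5.41e-09, limma), at 933 and 906 normalised counts against a control range of 372 to 499. Atp2b2, a plasma membrane calcium pump, had 1 of 9 gained and RNA higher by 0.74 (adjusted p 4.77e-06, limma). Gains stood beside RNA that rose, that fell and that did not pass the test.

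**Figure D5:**
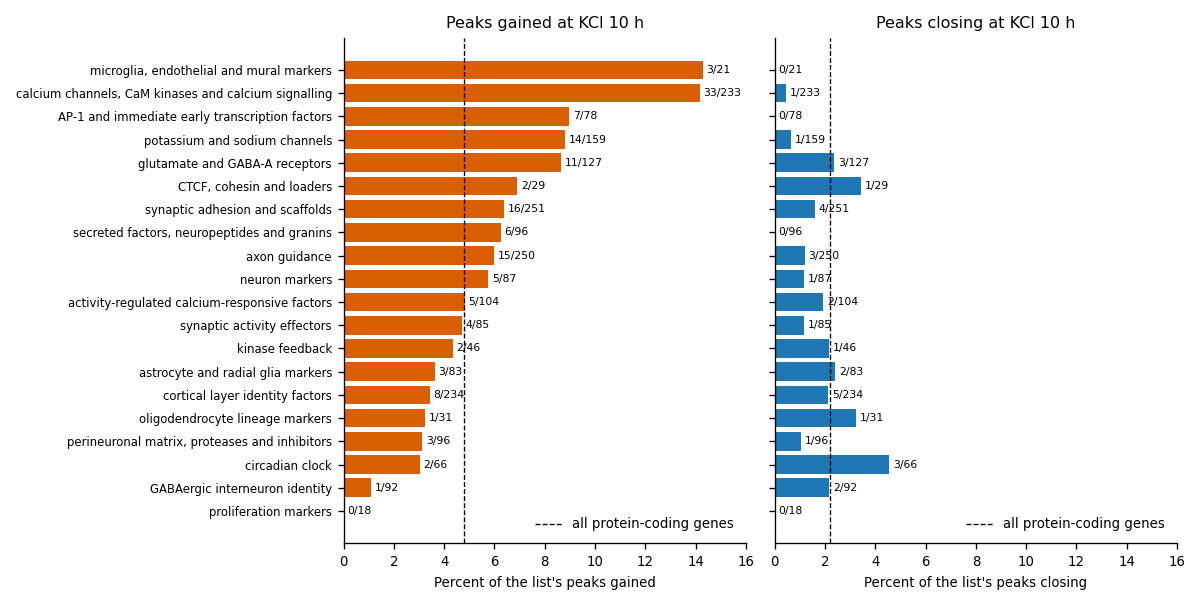
Percent of each gene list's tested peaks that were gained (left) or closing (right) at KCl 10 h, with the number called over the number tested and a dashed line at the share over all protein-coding genes (4.78% and 2.22%). The calcium list has 33 of 233 peaks gained, and the proliferation markers have 0 of 18.

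At immediate early genes, 7 of 78 peaks were gained (8.97%, against 4.78% at all protein-coding genes) and 0 closing (median 0.06), and 16 of 20 genes were higher and 3 lower in RNA. The promoter peak of Nr4a1 (ENSMUSG00000023034, chr15:101254269-101274795, plus strand), an orphan nuclear receptor, was at 108 and 99.8 against 37.1, 46.8 and 62.1 (chr15:101266257-101267037, log2 fold change 1.08, SE 0.21, edgeR adjusted p 9.2e-05). Its RNA rose by 4.15, adjusted p 5.54e-17, limma, with 1045 and 985 normalised counts at KCl 10 h against 50.9, 55.9 and 64.4 as the lowest, median and highest control. Near Npas4, a factor induced by calcium entry, a peak 2.77 kb from its start and at the promoter of AC124502.5 (chr19:4992925-4993245) with 2 AP-1 matches was at 52.5 and 55 against 19, 24.3 and 32.2 (log2 fold change 1.12, SE 0.28, edgeR adjusted p 0.00546), and RNA rose by 3.74, adjusted p 1.44e-07, limma. The call was lost without KCl 10 h library 2. A peak 53.3 kb from Jun, in an intron of Junos (1.04, adjusted p 0.00524, edgeR) was lost without library 1, and Jun RNA fell by 0.29 (adjusted p 0.00342, limma). Fos had 1 of 9 peaks gained (0.81, adjusted p 0.0179, edgeR), without AP-1, and RNA higher by 4.80 (adjusted p 3.57e-15, limma).

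Potassium and sodium channel genes had 14 of 159 peaks gained (8.8%, against 4.78% at all protein-coding genes) and 1 closing. Kcna4, of a fast-inactivating potassium channel, had a peak 72.8 kb away (chr2:107217723-107217994) at 25.4 and 20.7 against 2.61, 4.38 and 8.67 (log2 fold change 2.24, SE 0.48, edgeR adjusted p 0.000745), lost against the controls of 10 h alone, and RNA higher by 2.24, adjusted p 2.64e-13, limma. Near Kcnc2, of a channel of fast-spiking neurons, a peak with AP-1 (chr10:112521483-112521817) was at 46 and 60.2 against 5.11, 13.2 and 22.1 (log2 fold change 2.04, SE 0.34, edgeR adjusted p 4.05e-06), but RNA fell by 0.53 (adjusted p 0.00011, limma). An intronic peak of Kcnma1, the large-conductance calcium-activated channel, gained 2.15 (adjusted p 0.000531, edgeR), with RNA at 0.12 (adjusted p 0.468, limma). In glutamate and GABA-A receptor genes 11 of 127 were gained (8.66%) and 3 closing. The gains were led by Grin3a (2.16), Grm8 (1.67) and Grik1 (0.87), all in introns and all at genes higher in RNA (0.27, 0.58 and 0.35). The Grm8 and Grik1 calls were lost against the controls of 10 h alone, and that of Grm8, whose groups overlapped, also without KCl 10 h library 1.

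Secreted factors had 6 of 96 peaks gained (6.25%, near the 4.78% at all protein-coding genes) and 0 closing, and 21 of 25 genes rose in RNA. A peak with AP-1 at chr10:87816773-87817376, 41.2 kb from Igf1 (ENSMUSG00000020053, chr10:87858265-87937042, plus strand), the insulin-like growth factor, was at 104 and 75.3 against 26.2, 32.2 and 47.4 (log2 fold change 1.38, SE 0.23, edgeR adjusted p 6.52e-06), and Igf1 RNA rose by 1.42, adjusted p 6.47e-07, limma. Penk, the enkephalin precursor, had a peak 73.3 kb away at 97.4 and 77.8 against 15.7, 34.2 and 51.4 (chr4:4211892-4212392, log2 fold change 1.43, SE 0.26, edgeR adjusted p 2.65e-05), with RNA higher by 1.13, adjusted p 5.07e-06, limma. Near Nrg1, an ErbB ligand, a peak gained 0.77 (adjusted p 0.000167, edgeR) and RNA rose by 0.89, adjusted p 0.00023, limma. For all 3 the groups did not overlap in accessibility, as in 88.9% of all gained peaks.

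Synaptic adhesion and scaffold genes had 16 of 251 gained (6.37%, near the 4.78% at all protein-coding genes) and 4 closing. Intronic peaks of Magi2 (2.50) and Dlgap2 (2.02) were among the gained, both with AP-1. Magi2 and Dlgap2 also had 1 closing peak each (-1.60 and -1.87). Axon guidance genes had 15 of 250 gained (6%, also near 4.78%), among them peaks nearest to Sema3a (1.37) and Sema3e (1.69), 2 secreted semaphorins whose RNA rose by 0.39 and 1.65, and Robo1 (1.09). These 3 calls were lost against the controls of 10 h alone, those of Sema3a and Sema3e also without KCl 10 h library 1 and that of Robo1 without library 2. Sema3e also had 1 closing peak (-1.15, adjusted p 0.0462, edgeR). Of the CREB, MEF2 and CRTC factors' peaks 5 of 104 were gained (4.81%, against 4.78%) and 2 closing. An intronic peak of Mef2c (chr13:83566125-83566604) was at 47.6 and 54.2 against 4.76, 15.5 and 21.2 (log2 fold change 1.90, SE 0.34, edgeR adjusted p 3.07e-05), without AP-1, while its RNA fell by 0.20 (adjusted p 0.0231, limma). Mef2c also had 1 closing peak (-0.73, adjusted p 0.016, edgeR). In Sik3, a salt-inducible kinase that holds CRTC proteins in the cytoplasm, an intronic peak with AP-1 (chr9:46083570-46083951) was at 51.9 and 47.4 against 1.62, 15 and 19.6 (log2 fold change 2.06, SE 0.33, edgeR adjusted p 2.24e-06) and RNA rose by 1.43, adjusted p 1.57e-12, limma. Near its relative Sik1, in contrast, a peak closed (chr17:31777219-31777389, -1.98, adjusted p 0.0105, edgeR, lost without library 2) while RNA rose by 0.88, adjusted p 1.3e-08, limma.

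A few genes that rose in RNA had closing peaks close by. The nearest RNA-tested gene within 50 kb was called higher for 28% of closing peaks, against 30.4% of all tested peaks with such a gene. Over all protein-coding genes 2.22% of peaks closed. Slc32a1 and Gad1, which mark GABAergic neurons as the vesicular transporter and the enzyme of GABA synthesis, held both closing peaks of the interneuron list (2 of 92 closing, 1 gained, at Reln, lost without either KCl 10 h library, against the controls of 10 h alone, in limma and in a fit of the 8 libraries alone). The Slc32a1 peak, 3.85 kb from the start (chr2:158606682-158607162), was at 17 and 11.7 against 21.8, 37.3 and 48.8 (log2 fold change -1.40, SE 0.37, edgeR adjusted p 0.00905), and the Gad1 peak, 3.71 kb away (chr2:70558239-70558419), at 3.03 and 10.4 against 13.4, 24.4 and 36.6 (log2 fold change -1.84, SE 0.51, edgeR adjusted p 0.0145). Their RNA rose by 0.87, adjusted p 0.000119, limma, and 0.89, adjusted p 1.88e-06, limma. Over the whole interneuron list, 8 of 20 genes tested in RNA were higher and 7 lower, with a median log2 fold change of 0.06. In the clock list 3 of 66 closed, among them an intronic peak of Per1 (chr11:69097037-69097270, -1.24, adjusted p 0.0285, edgeR) and a peak 30.6 kb from Nfil3 (-1.45, adjusted p 0.0636, edgeR), while RNA of Per1 and Nfil3 rose by 1.87 and 1.90 (adjusted p 1.11e-12 and 1.22e-12, limma). All 4 closing calls were lost against the controls of 10 h alone. Those of Gad1 and Per1 were also lost without KCl 10 h library 1, that of Slc32a1 without library 2, and that of Nfil3 in DESeq2, without either or without the control of 10 h, library 2. Within Nrn1, the gene of an activity-induced surface protein, a peak 3.46 kb from the nearest start of Nrn1 closed (-1.56). It overlapped the controls and was lost without library 1, and Nrn1 RNA rose by 1.64, adjusted p 1.01e-09, limma.

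In the remaining lists too the shares were near the background (4.78% gained and 2.22% closing) or rested on few peaks. Synaptic activity effectors had 4 gained and 1 closing of 85 peaks, matrix genes and proteases 3 gained and 1 closing of 96, with a peak near the matrix glycoprotein gene Tnc at 2.37, and kinase feedback genes 2 gained and 1 closing of 46, with Spred2, a Ras pathway inhibitor, at 1.71 (lost without KCl 10 h library 1, against the controls of 10 h alone and in a fit of the 8 libraries alone). Cortical layer factors had 8 gained and 5 closing of 234, where Nfia (1.53) and Rorb (1.80) gained intronic peaks with AP-1. Nfia and Tnc also had 1 closing peak each (-1.52 and -1.59). The CTCF and cohesin genes had 2 gained and 1 closing of 29, and of these the gain at the Stag1 promoter (0.29) reversed under TMM, size factors and DESeq2. Stag1 also lost its call without either KCl 10 h library, Pds5b under TMM, size factors, DESeq2 and limma, against the controls of 10 h alone, and without KCl 10 h library 1 or the control of 10 h, library 2, and the closing Stag2 peak against the controls of 10 h alone and without KCl 10 h library 2. Among cell markers, neurons had 5 gained and 1 closing of 87, astrocytes and radial glia 3 gained and 2 closing of 83, oligodendrocyte lineage 1 gained and 1 closing of 31, and microglia, endothelial and mural cells 3 gained and 0 closing of 21, the gains of this last list being nearest to Col3a1 and Flt1. The part of these cell types in the called peaks was not tested.

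A larger share of gained peaks than of all peaks lay near a gene that rose in RNA. With the nearest RNA-tested gene within 50 kb, 36.8% of 1452 gained peaks had a gene called higher (exact 95% interval 34.4% to 39.4%) and 23.8% a gene called lower, against 30.4% and 29.2% of all 34803 peaks with such a gene. For closing peaks these were 28% and 28.5%. Peaks that share a gene are not independent, so the intervals cover counting error only. Within 10 kb, distal gained peaks had a gene called higher in 41.2% and lower in 18.5%, and all distal peaks in 30.1% and 29.3%. Rises of at least 2-fold were near 9.02% of gained and 4.44% of all peaks. With and without AP-1, gained peaks had a gene called higher in 36.6% and 37.1%.

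There were 104 genes at least 2-fold higher in RNA with a gained peak within 50 kb, and the 10 with the smallest adjusted p of the peak were Hsd17b12, Cubn, Fam241a, Mir670hg, Sik3, Ifi202b, Pkp4, B230216N24Rik, Igf1 and Klhl1. Hsd17b12 (ENSMUSG00000027195, chr2:94032689-94157964, minus strand), an enzyme of fatty acid elongation, had an exonic peak with AP-1 (chr2:94051926-94052495) at 69.4 and 38.9 against 4.84, 10.5 and 20.1 (log2 fold change 2.42, SE 0.30, edgeR adjusted p 1.34e-09). Its RNA rose by 1.68, adjusted p 2.11e-14, limma, with 3793 and 4079.8 normalised counts at KCl 10 h against 1116, 1241 and 1339.8 as the lowest, median and highest control. In Mir670hg, a host transcript of a microRNA, an intronic peak without AP-1 (chr2:94246845-94247468) was at 205 and 137 against 59.9, 66.7 and 105 (log2 fold change 1.21, SE 0.18, edgeR adjusted p 1.73e-07) and RNA rose by 3.80, adjusted p 1.06e-14, limma. Neither peak overlapped between the groups, as in 88.9% of all gained peaks.

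Pkp4, a plakophilin of cell junctions, had an intronic peak with AP-1 at 63.7 and 57.2 against 11.6, 18.5 and 22 (chr2:59226351-59226744, log2 fold change 1.73, SE 0.28, edgeR adjusted p 3.5e-06) and RNA higher by 1.06, adjusted p 5.71e-12, limma. Klhl1, an actin-binding protein of neurons, had an intronic peak at 20.7 and 31.9 against 1.03, 5.3 and 7.08 (chr14:96499978-96500338, log2 fold change 2.50, SE 0.43, edgeR adjusted p 1.11e-05) and RNA higher by 1.63, adjusted p 3.54e-05, limma. B230216N24Rik, which starts within Pam, the peptide-amidating enzyme gene, had a promoter peak at 130.0 and 116 against 45.3, 51.9 and 84.9 (chr1:98047530-98048050, log2 fold change 1.12, SE 0.18, edgeR adjusted p 3.82e-06) and RNA higher by 2.05, adjusted p 3.76e-10, limma. Cubn and Ifi202b had peaks at 2.21 and 1.42, but their RNA was low, at 12.2 and 20.7 and at 4.89 and 5.45 normalised counts.

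Whether the 10 h state differed from earlier KCl states was tested directly. Between KCl 10 h and KCl 6 h no peak passed adjusted p below 0.1 (edgeR, 0% higher and 0% lower), and none did with TMM scaling or DESeq2. At unadjusted p below 0.05, 3339 peaks passed in edgeR (5.92%), 3383 with TMM and 2850 in DESeq2. Without KCl 6 h library 1, which leaves the shallowest library of the series alone, 14 were higher and 9 lower. Against KCl 1 h, 592 peaks (1.05%) were higher and 339 (0.601%) lower at KCl 10 h. This count leaned on the libraries, falling to 12 and 4 without KCl 1 h library 2 and to 67 and 19 without KCl 10 h library 1.

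Of the 592 peaks higher than at KCl 1 h, 32.9% held AP-1 and 12.8% lay at promoters, and of the 339 lower, 4.72% and 49%. The higher peak with the smallest adjusted p, chosen after its values were seen, was intergenic at chr4:10357417-10357924, 513 kb from Gdf6 and apart from the closing peak named above. It was at 119 and 102 at KCl 10 h, 28.6 and 18.1 at KCl 1 h and 7.72 to 39.7 in controls (10 h minus 1 h 2.28, SE 0.30, adjusted p 3.36e-07, edgeR), and it held AP-1. Also chosen so, the lower one with the smallest adjusted p lay at the promoter of Lef1, a factor of the Wnt pathway, at 22.7 and 14.8 against 81.5 and 66 at KCl 1 h (-1.97, adjusted p 0.000638, edgeR), with controls at 27 to 37. Against the shared controls, the median log2 fold change of the 3333 gained peaks was 0.64 at KCl 1 h, 1.11 at KCl 6 h and 1.38 at KCl 10 h, where they were chosen. At BDNF 10 h it was 1.19. The median of the 1107 closing peaks was -0.35 at KCl 1 h, -0.45 at KCl 6 h and -0.20 at BDNF 10 h. It was -1.05 at KCl 10 h, where they too were chosen.

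Differences between KCl and BDNF at 10 h were tested in the same way. At KCl 10 h 468 peaks (0.83%) were higher and 655 (1.16%) lower than at BDNF 10 h, and without KCl 10 h library 2 the counts were 67 and 86. AP-1 letters were in 5.34% of the peaks higher with KCl and in 31.3% of those higher with BDNF, with promoters at 19.9% and 23.8%. The peaks named here were chosen after their values were seen, by the smallest adjusted p. An intergenic peak 14.1 kb from Bmt2 (chr6:13691846-13692204) was at 64.6 and 42.7 with KCl, 1.57 and 4.72 with BDNF and 4.23 to 15.4 in controls (KCl minus BDNF 3.96, SE 0.65, adjusted p 0.000101, edgeR). An intronic peak of Hs3st5, a heparan sulfate sulfotransferase, differed by 4.11 (adjusted p 0.00108, edgeR), and neither held AP-1. In the other direction, intronic peaks of Fbxo36 (-2.27, 26.4 and 22 with KCl against 143 and 92.5 with BDNF, adjusted p 1.51e-05, edgeR) and Tub (-2.25, adjusted p 1.88e-05, edgeR) and a peak 69 kb from Slc4a7 (-1.77, adjusted p 1.88e-05, edgeR) all held AP-1.

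Several named gained peaks were also higher with KCl than with BDNF. They were chosen for a high KCl 10 h value, which enters this contrast too. For the intronic Cacnb2 peak the mean was 91.5 ± 1.9 with KCl and 25.7 ± 1.61 with BDNF (SD, n = 2 each), a difference of 1.82 (adjusted p 0.00363, edgeR). The Mir670hg peak differed by 1.13 (adjusted p 0.00423, edgeR) and the Gzmk promoter peak by 1.07 (adjusted p 0.00653, edgeR). For Nr4a1 and Mef2c the difference was 0.76 (adjusted p 0.159, edgeR) and 1.25 (adjusted p 0.17, edgeR).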

How the data were processed

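ATAC-seq counts per peak and RNA-seq values per gene were taken from the deposited tables. The ATAC-seq values were raw read counts that the authors deposited per peak, and the RNA-seq signal values were read counts the authors had divided by DESeq2 size factors (100% of values came back as whole reads at a tolerance of 0.01). Per the processing notes, the authors used Trimmomatic, Bowtie2, MACS2, DiffBind, TopHat2 and DESeq2 on mm10. The authors' tables of differential peaks and genes, which hold their fold changes and p-values, were not used.

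Peaks with a mean count of at least 10 over 18 libraries were tested with edgeR 4.0.16 (R 4.3.3; quasi-likelihood, robust), LOESS offsets (span 0.3) and 7 levels, the controls of 3 durations as 1 level, after DESeq2 with LOESS scaling in the study. RNA was tested with limma 3.58.1 on log2(value + 1), so that fold changes of low genes are understated. All tests were two-sided, with Benjamini-Hochberg adjusted p below 0.1. Whole RNA reads, tested with edgeR, gave 4629 genes higher and 4537 lower. Scaled counts are counts divided by the LOESS offsets. Annotation was GENCODE M21, and motifs were matched as letters on both strands (Python 3.11.15). Intervals are exact binomial (Clopper-Pearson, scipy 1.17.1) and cover counting error only. Alternatives were other scalings, DESeq2 1.42.0, limma, filters, controls of 10 h alone, the 8 libraries alone, a GC curve and leaving out each library.

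Named peaks were the 10 largest changes each way (adjusted p below 0.01, both KCl 10 h libraries beyond all controls), the genes with most called peaks, up to 3 genes of each list by adjusted p, the 10 gained peaks nearest to genes raised at least 2-fold, and 5 promoter peaks each way. 1 named peak and some sequences are not reported here. The members and lists were chosen with earlier results of these data known. RNA libraries at KCl 10 h held 10.4 and 11.6 M reads in genes.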

Additional observations from a re-analysis of the deposited data

Results flagged for a closer look

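In 8 of 86 control groups screened (85 named peaks and the promoter share of reads), a library lay far from the other 5. For normally distributed values chance alone marks about 1 group in 20, and whether that rate holds for these scaled counts was not tested. At the gained peak nearest to Ppp3ca, the control of 1 h, library 2, was the highest with a scaled count of 7.05. For Aldoart1 (gained peak) it was the control of 10 h, library 1, the highest at 9.04. For Galr1 (closing peak) it was the control of 6 h, library 2, the lowest at 4.66. For B230216N24Rik (gained peak) it was the control of 10 h, library 2, the highest at 84.9. For Nrn1 (closing peak) it was the control of 6 h, library 2, the lowest at 6.23. For Kcna4 (gained peak) it was the control of 10 h, library 2, the highest at 8.67. For Spred2 (gained peak) it was the control of 10 h, library 1, the highest at 14.5. For Slc17a6 (gained peak) it was the control of 6 h, library 2, the highest at 4.69. The 1 h, 6 h and 10 h controls were silenced for 3, 8 and 12 h in all.

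Of 255 direct comparisons of the 85 named peaks with KCl 1 h, KCl 6 h and BDNF 10 h, 45 passed adjusted p below 0.1 in edgeR, with 2 libraries on each side. The peaks were chosen for their change at KCl 10 h, whose libraries enter these differences too. In log2 units, KCl 10 h minus KCl 1 h was positive at the gained peaks nearest to Lgsn 2.08, Fam241a 2.76, Nkain3 1.44, Zfp64 2.46, Ppp3ca 1.77, Aldoart1 2.38, Angpt1 1.98, Ifi202b 0.87, Pkp4 1.11, Klhl1 1.82, Gm48774 1.08, Rdh10 1.46, Cacnb2 1.34, Cacna2d1 1.98, Serpinb2 2.1, Pds5b 0.56, Col3a1 1.93 and Flt1 2.06, with adjusted p from 0.00609 to 0.0999. It was negative at the closing peaks nearest to Atp10a -3.24, Gm20830 -2.96, Galr1 -2.46, Ghitm -2.23, Hist1h2be -1.12 and Nrn1 -1.79, with adjusted p from 0.0331 to 0.0798.

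KCl 10 h minus BDNF 10 h was positive at the gained peaks nearest to Mir670hg 1.13, Gzmk 1.07, Npas4 1.81, Nrg1 0.89, Cacnb2 1.82, Grik1 0.94, Sema3e 1.77 and Robo1 1.3, with adjusted p from 0.00363 to 0.098. It was negative at the closing peaks nearest to Olfm4 -4.91, Rgs3 -3.27, Gm20830 -2.81, Itpr1 -3.14, Igfbp7 -3.42, Ghitm -2.74, Gpc6 -2.45, Gm10060 -0.65, Tpgs1 -1.11, Hist1h2be -1.28, Tsen34 -0.57 and Slc32a1 -1.63, with adjusted p from 0.000165 to 0.0722, and at the gained peak nearest to Nfia -1.23, with adjusted p 0.0515. The largest of these, at Olfm4, lost its call against controls without KCl 10 h library 1 or library 2.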

How the results depend on the processing

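The numbers of called peaks moved most. Gained and closing peaks numbered 5051 and 2944 with TMM, and closing peaks 3909 with size factors and 3308 with DESeq2. They were 1352 and 553 with a minimum mean count of 30, where 28149 peaks were tested, 1492 and 593 against the controls of 10 h alone, and 1447 and 113 at adjusted p below 0.01, and gained peaks 1942 in a fit of the 8 libraries alone. Leaving out 1 library at a time gave 1326 to 3459 gained and 382 to 1099 closing peaks, lowest for both without KCl 10 h library 1. It gave 0 to 14 higher and 0 to 9 lower than at KCl 6 h, 12 to 389 and 4 to 131 against KCl 1 h, and 67 to 266 and 86 to 394 against BDNF 10 h. With TMM 562 peaks were lower than at KCl 1 h and 1042 lower than with BDNF, and DESeq2 called 269 higher than with BDNF.

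The promoter share of gained peaks was 5.35% with TMM, 6.29% at adjusted p below 0.01, 11.8% against controls of 10 h, 17.4% with the GC curve, 14.2% with promoters within 2 kb, and 7.68 to 10.4% without 1 library. For closing peaks these were 79.2%, 52.2%, 45%, 24.5%, 47.5% and 33.2 to 44.5%. The AP-1 share of gained peaks was 43.5% with TMM, 55.5% at adjusted p below 0.01, 43% against controls of 10 h, 55.8% over whole peaks and 46.1 to 52.6% without 1 library, and of closing peaks 4.79% over whole peaks and 1.63 to 2.62% without 1 library. The CTCF share of gained peaks was 1.24% at adjusted p below 0.01, 3.73% with the GC curve, 6.03% over whole peaks and 1.66 to 2.43% without 1 library, and of closing peaks 8.8% with TMM, 20.6% over whole peaks and 8.24 to 13.4% without 1 library. The share of gained peaks near a gene higher in RNA was 34% against controls of 10 h, 40.1% within 10 kb and 35 to 37.2% without 1 library. Where a value moved, the cause was not tested.

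Of 85 named peaks, 44 kept direction and call under up to 18 alternatives and 41 lost the call in at least 1. The log2 fold change of the promoter peak chr9:100642785-100644394 (Stag1) reversed, at -0.00520 with TMM, -0.0493 with DESeq2 size factors, -0.0500 with DESeq2. No paired analysis was possible because the table columns carry no replicate numbers from the labels. The depth limit on small changes at low peaks was not measured.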
